A study of Mus musculus with 7 samples.

Results

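The platelet-derived growth factor (PDGF) genes comprise 4 ligand genes, *Pdgfa*, *Pdgfb*, *Pdgfc* and *Pdgfd*, and 2 receptor genes, *Pdgfra* and *Pdgfrb*. They were chosen by name, as the 6 PDGF ligand and receptor genes of the GENCODE annotation among 21938 protein-coding genes on chromosomes 1 to 19, X and Y. For each gene the H3K27-Ac peaks at its transcription starts, in its body, within 100 kb and in the domain around it were read from the peak lists of 3 tumour cell clones.

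PDGF ligands are secreted dimers that bind receptor tyrosine kinases on the cell surface. The A and B chains are secreted in an active form, whereas the C and D chains carry a CUB domain that a protease has to remove first. The α-receptor binds the A, B and C chains, and the β-receptor binds the B and D chains. In skin, epithelial cells and endothelial cells are known sources of ligand and dermal fibroblasts, the dermal papilla and pericytes are known to carry the receptors. H3K27-Ac, acetylation of lysine 27 of histone H3, marks active promoters and enhancers, and it is not itself a measure of RNA or of protein.

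The clones were derived from 3 independent skin tumours, trichoblastic carcinomas of mice that lack *Cdkn2a* and *Cdkn2b* (*Cdkn2ab*-/-) on a mixed FVB/129P2 backcross background. Each clone had been selected by growth in soft agar and then grown attached. Each list thus describes a single selected cell clone, and there were no normal skin cells for comparison. There were 4 H3K27-Ac libraries, 1 each of clones 1 and 2 and 2 pooled libraries of clone 3, and 3 IgG control libraries, 1 of clone 1 and 2 of clone 3. *Pdgfb* is of interest here because it lies in the chromosome 15 interval that was linked to the tumours, and the question was how the ligand and receptor genes are marked in clones of these tumours. All clones share the *Cdkn2ab*-/- genotype, while their FVB and 129P2 segments may differ, and there is no second condition, so the clones are the replicates, no test between groups could be made, and values of the 6 genes are set beside those of all protein-coding genes.

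The lists held 29182, 49587 and 29277 peaks for clones 1, 2 and 3. The deposited fold enrichment of a peak (called fold below) is the ChIP pileup over the local background at the summit, and the ChIP reads at each summit (called reads below) were solved from fold and p. No listed summit had fewer than 13, 12 and 25 reads in clones 1, 2 and 3, and sites below that are not seen, so that the lack of a peak is not a lack of the mark. Fold is lower in the list of clone 3 as a whole, with a median of 5.38 against 7.70 and 7.14 in clones 1 and 2, so fold was compared with other genes of the same list only. The background of clones 1 and 2 differed by less than 10% at 85.1% of 4750 summits they share. For clones 1 and 3 this was 17.8% of 4441 shared summits. The controls of clones 1 and 2 can therefore not be taken as independent, although the control of clone 2 is not given. *Cdkn2a* and *Cdkn2b*, the genes deleted in these mice, had no promoter peak in any clone.

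The clones were labelled as skin tumours, and marker genes were checked first. Of 14 epithelial and keratinocyte markers, 4, 5 and 3 had a promoter peak in clones 1, 2 and 3. Marked in every clone were *Itga6* (65, 150 and 58 reads), *Cdh3* (56, 133 and 49) and *Perp* (35, 153 and 70). *Krt14* had one in clone 1 only, and *Krt15* and *Sfn* in clone 2 only. *Krt5*, *Krt8*, *Krt18*, *Trp63*, *Cdh1*, *Epcam*, *Itgb4* and *Dsp* had none in any clone. Of 15 mesenchymal and fibroblast markers, 11, 11 and 10 had one, and *Vim*, which encodes vimentin, was among them with 184, 240 and 127 reads. *Thy1*, *Dcn* and *Lum* had none in any clone. Of 6 dermal papilla markers only *Vcan* had one, in every clone. Mural markers differed between clones, with 2, 3 and 0 of 5, and endothelial and immune markers were mostly without (0, 0 and 1 of 4 and 1, 1 and 0 of 3). Of 4 melanocyte markers, *Mitf* and *Pmel* had one in every clone and *Tyr* and *Dct* had none. The part of these differences in the results below was not tested.

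A promoter peak, that is a peak within 1 kb of an annotated transcription start, was found for 4 of the 6 genes in clone 1, for all 6 in clone 2 and for 3 in clone 3. Of all protein-coding genes, 49.8%, 56.9% and 48.1% had one in clones 1, 2 and 3. *Pdgfa*, *Pdgfc* and *Pdgfrb* had a promoter peak in all 3 clones, as did 46.5% of all genes. *Pdgfra* had one in clones 1 and 2, a pattern of 654 genes (2.98%), and *Pdgfb* and *Pdgfd* had one in clone 2 only, a pattern of 1349 genes (6.15%). Over the 18 combinations of gene and clone there were 13 with a promoter peak. The genes thus fall into those marked in every clone and those whose start was marked in only some of them. In clone 3 the count lies at about the share of all genes and in clones 1 and 2 above it, over 6 genes and with no test of the difference. Without clone 2 there were 7 combinations with a promoter peak. With equal numbers of peaks per clone *Pdgfb* and *Pdgfd* had no promoter peak in clone 2 either, and at a −log10 q of at least 5 *Pdgfc* had none in clone 3.

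**Figure D1:**
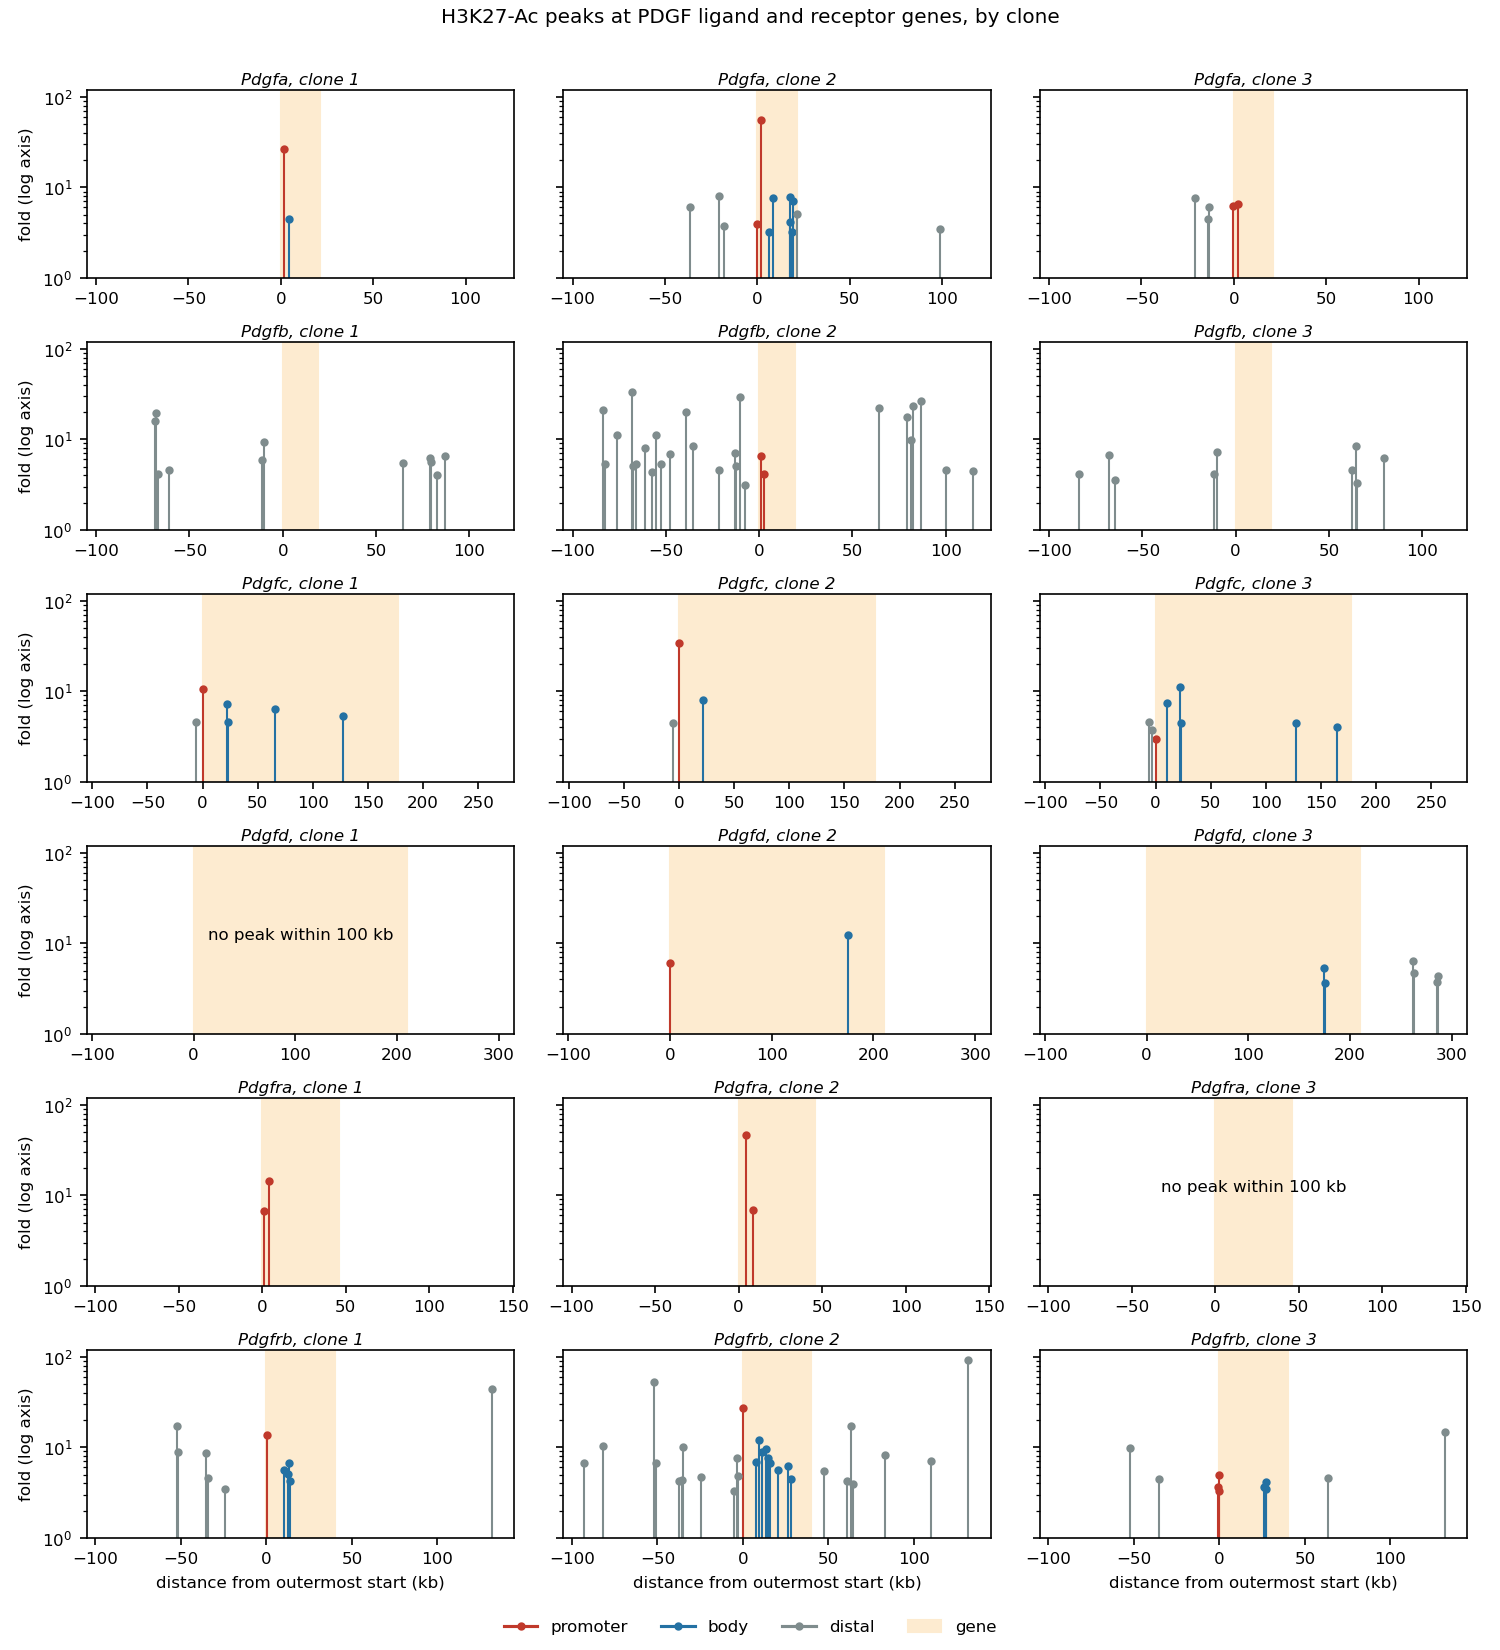
Peaks of each clone at the 6 PDGF genes. Each line stands at a peak summit, its height is the fold on a log axis, the x axis is the distance in kb from the outermost annotated start in the direction of transcription, and the shaded band is the gene. *Pdgfd* in clone 1 and *Pdgfra* in clone 3 have no peak within 100 kb, whereas *Pdgfb* and *Pdgfrb* have the most peaks around them.

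Sequences are shown for the starts of ligand genes and for the regions that carry the patterns described below. They are written 5′ to 3′ on the strand of the gene in GRCm38.p6, from the RefSeq promoter table for starts and from the genome for the others, and capitals mark CG dinucleotides. The promoter of *Pdgfa*, chr5:138995038-138995194 (minus strand), lay under a peak in all clones and overlaps an exon of the antisense RNA *6330403L08Rik*. It belongs to a start inside the gene and not to the outermost one at 138997370. Bases in annotated untranslated regions were left out, so it is shorter than 250 bases. Those of *Pdgfc*, chr3:81036166-81036415 (plus strand), and *Pdgfd*, chr9:6168236-6168485 (plus strand), are the 250 bases before the RefSeq start. Under a peak lay 124, 169 and 202 of the bases of *Pdgfc* in clones 1, 2 and 3, and 0, 149 and 0 of those of *Pdgfd*. No promoter sequence is shown for *Pdgfb* and *Pdgfrb*.
Pdgfa promoter: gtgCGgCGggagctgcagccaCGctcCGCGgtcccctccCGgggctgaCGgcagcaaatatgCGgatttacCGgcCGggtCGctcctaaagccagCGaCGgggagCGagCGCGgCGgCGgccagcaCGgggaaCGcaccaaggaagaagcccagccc
Pdgfc promoter: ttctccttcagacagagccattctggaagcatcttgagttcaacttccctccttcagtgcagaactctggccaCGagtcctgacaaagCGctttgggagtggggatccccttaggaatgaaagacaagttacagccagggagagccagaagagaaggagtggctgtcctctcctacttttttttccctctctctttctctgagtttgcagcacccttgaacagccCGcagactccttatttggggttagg
Pdgfd promoter: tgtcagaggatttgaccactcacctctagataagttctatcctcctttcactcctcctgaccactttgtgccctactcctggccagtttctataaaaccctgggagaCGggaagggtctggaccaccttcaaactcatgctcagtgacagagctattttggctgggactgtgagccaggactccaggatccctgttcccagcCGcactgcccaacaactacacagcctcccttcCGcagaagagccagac
The stretch shown for *Pdgfa* held 20 CG dinucleotides in 157 bases, or 12.7 per 100 bases, and 95.4% of RefSeq promoters had fewer. Those promoters were counted over 250 bases without such trimming, so this rank is not like for like. *Pdgfc* and *Pdgfd* held 1.20 per 100 bases each, below the median promoter of 2.40, and 29.1% of promoters had fewer.

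Further sequences are from regions upstream of a gene or in an intron. The region upstream of *Pdgfb*, chr15:80024880-80025079 (minus strand), and the intronic region of *Pdgfc*, chr3:81058170-81058369 (plus strand), lay under a peak in all 3 clones. The region of *Pdgfra*, chr5:75156350-75156549 (plus strand), follows the exon in which the summit of clone 1 lies and was under a peak in clones 1 and 2 only.
Pdgfb upstream region: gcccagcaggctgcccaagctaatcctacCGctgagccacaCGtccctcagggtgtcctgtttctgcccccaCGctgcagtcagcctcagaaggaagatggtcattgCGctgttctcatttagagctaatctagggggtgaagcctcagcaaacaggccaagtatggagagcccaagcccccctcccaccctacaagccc
Pdgfc intronic region: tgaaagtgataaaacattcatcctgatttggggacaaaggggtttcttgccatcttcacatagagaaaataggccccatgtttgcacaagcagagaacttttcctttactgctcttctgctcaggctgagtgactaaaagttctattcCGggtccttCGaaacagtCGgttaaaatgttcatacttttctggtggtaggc
Pdgfra intronic region: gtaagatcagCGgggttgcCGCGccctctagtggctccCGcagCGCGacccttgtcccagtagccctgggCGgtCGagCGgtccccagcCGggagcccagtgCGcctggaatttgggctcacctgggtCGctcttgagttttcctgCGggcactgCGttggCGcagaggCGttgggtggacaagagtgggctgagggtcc
The *Pdgfra* region held 8.00 CG dinucleotides per 100 bases, the *Pdgfb* region 2.00 and the intronic region of *Pdgfc* 1.50. On both strands of the 6 sequences 5 motifs were searched: TGANTCA, bound by AP-1, GGAATG, bound by TEAD factors, the GC box GGGCGG, the TATA box TATAAA and the CCAAT box CCAAT. The promoter of *Pdgfc* held 1 GGAATG, found in 12.6% of RefSeq promoters, and that of *Pdgfd* held 1 TATAAA, found in 12.4%. The *Pdgfra* region held 1 GGGCGG, found in 32.7% of RefSeq promoters (250 bases). In 200-base windows at summits over 1 kb from any start it was found in 5.12%, 8.84% and 3.78% in clones 1, 2 and 3, but the *Pdgfra* region lies nearer to a start than that. No other match was found, and TGANTCA, in 6.75% of promoters, and CCAAT, in 33.8%, were in none of the 6 sequences.

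*Pdgfa* encodes the A chain, a ligand of the α-receptor that epithelial cells secrete during hair follicle development. It lies on chromosome 5 from 138976014 to 138997370 on the minus strand and has 7 annotated starts. The strongest promoter peak had a fold of 26.6 in clone 1 (123 reads), 55.5 in clone 2 (257 reads) and 6.49 in clone 3 (81 reads), and in each clone it covered 6 of the starts. The start of the antisense RNA *6330403L08Rik* (138995056 to 139000577, plus strand) lies under the same peak, so the mark at both cannot be told apart. Among all genes with a promoter peak in the same list, 70.9%, 72.5% and 31.4% had a strongest peak no higher than that. *Pdgfa* was thus the most strongly marked of the 6 genes at its start in each clone, above the median gene in clones 1 and 2 and below it in clone 3. The outermost start had a peak of its own in clones 2 and 3, with 25 and 56 reads, and none in clone 1. Within the gene body the clones differed more. Clone 2 had 6 body peaks with folds of 3.19 to 7.78, clone 1 had 1 of 4.44 that lay 1161 bp from a start, just outside the promoter window, and clone 3 had none. Together the peaks covered 15.6%, 42.3% and 14.2% of the gene in clones 1, 2 and 3. Clones 2 and 3 shared a region that began 20.3 and 20.5 kb upstream, with folds of 8.06 and 7.59, whose nearest protein-coding start was that of *Prkar1b*, a regulatory subunit of protein kinase A.

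*Pdgfb* encodes the B chain, which binds both receptors and draws pericytes to vessels. It lies on chromosome 15 from 79995874 to 80014977 on the minus strand. In clone 2 a peak of 28 reads (fold 6.49) lay 103 bp from a start and another of 17 reads (fold 4.10) lay 142 bp from a start, and neither covered a start base. The weaker of them lies next to the start of *Gm41361*, an antisense RNA gene from 80012331 to 80042457 on the plus strand. Clones 1 and 3 had no promoter peak, and no clone had a body peak outside the promoter windows. The fold of the stronger peak was in the lowest 5.95% of genes with a promoter peak in clone 2. Of 12642 peaks of clone 2 with 23 to 33 reads, 19.4% overlapped a peak of clone 1 and 17.2% one of clone 3, so most peaks of this height were found in clone 2 alone.

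A region upstream of *Pdgfb* was marked in every clone. Its main peak spanned chr15:80024175-80025802 (clone 1), chr15:80024058-80027140 (clone 2) and chr15:80024530-80026445 (clone 3). The summits lay 9.94, 10.1 and 9.99 kb before the outermost start. The folds were 9.27, 29.2 and 7.20, with 54, 163 and 99 reads, which is no lower than 58.4%, 83.7% and 69.7% of the peaks of the same lists. The region was therefore shared while the start itself was not, and its nearest protein-coding start was that of *Pdgfb*. It lies within *Gm41361*, and the sequence shown above overlaps no exon. Distal peaks within 100 kb numbered 11, 25 and 9 in clones 1, 2 and 3, most of them nearest to *Cbx7*, *Rpl3* or *Syngr1*. *Pdgfb* had the nearest start for 2, 5 and 2 of them. In clones 1, 2 and 3 the control background on chromosome 15 was 1.34, 1.33 and 1.39 times that of the other autosomes (chromosome 8 left out, which is raised too). The chromosomes of the other 5 genes lay between 0.980 and 1.06. As the control of clone 2 is not given, its value may repeat that of clone 1. Reads at *Pdgfb* may come from more template than those of the other genes. The part of this in the peaks of *Pdgfb* was not tested.

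**Figure D2:**
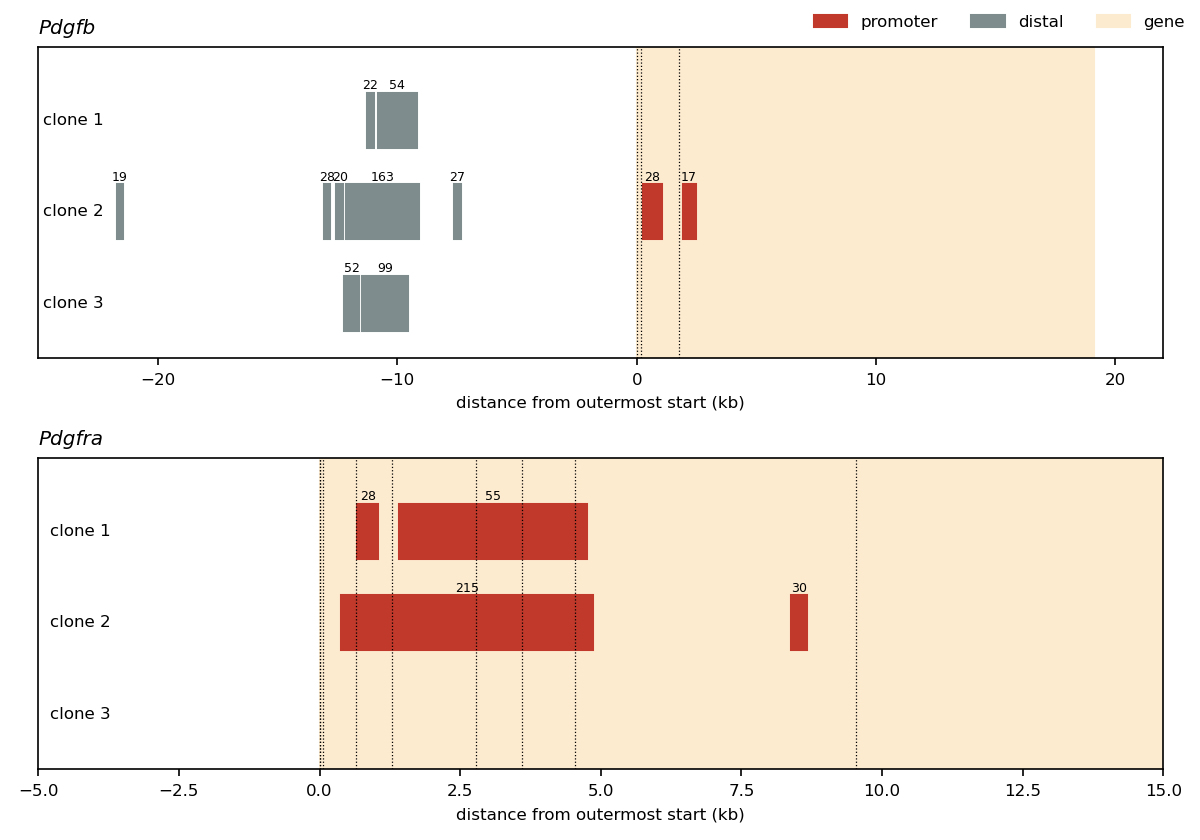
Peaks drawn to scale around the starts of *Pdgfb* and *Pdgfra*, with the ChIP reads at each summit above the bar. Dotted lines are annotated starts, x is the distance in kb from the outermost one, and colours separate promoter and distal peaks. The region about 10 kb upstream of *Pdgfb* is present in all 3 clones, and clone 3 has no peak at *Pdgfra*.

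*Pdgfc* encodes a ligand whose CUB domain has to be cut off before it can bind the α-receptor. It lies on chromosome 3 from 81036416 to 81214040 on the plus strand, and 1 promoter peak covered all 3 of its starts in every clone. That peak had 72, 165 and 73 reads and folds of 10.5, 33.9 and 2.94 in clones 1, 2 and 3. The fold was no lower than that of 22.1%, 42.1% and 0.398% of marked genes of the same list, so that in clone 3 nearly every marked gene had a higher fold. The background at this summit was 2.00, 1.11 and 7.00 control reads in clones 1, 2 and 3. In its 178 kb body clones 1, 2 and 3 had 4, 1 and 5 peaks. The region about 22 kb into the gene was marked in all clones, with folds of 7.25, 8.10 and 11.1 and 49, 39 and 92 reads. In clones 1 and 2 the start was higher than this region in fold and in reads. In clone 3 the start had a fold of 2.94 against 11.1 in the intron, with 73 against 92 reads and a background of 7.00 against 1.64 control reads. A peak about 127 kb into the gene was shared by clones 1 and 3, with folds of 5.40 and 4.45. A weak region 6.02, 5.71 and 5.25 kb upstream was found in clones 1, 2 and 3, with 18, 18 and 40 reads.

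*Pdgfd* encodes the other CUB-domain ligand, which binds the β-receptor. It lies on chromosome 9 from 6168584 to 6378850 on the plus strand and is the longest of the 6 genes. Clone 1 had no peak in it or within 100 kb, which was the case for 19.5% of all genes in that clone. Clone 2 had a promoter peak over all 3 starts with 26 reads and a fold of 6.07, in the lowest 5.18% of marked genes. Clone 3 had none at the start. About 175 kb into the gene, which is 210 kb long, clone 2 had a body peak of 51 reads, with a fold no lower than 69.5% of its list. Clone 3 had 2 there of 41 and 27 reads, no lower than 49.9% and 10.9%. The peak of clone 2 overlapped both peaks of clone 3. Downstream of the gene clone 3 had 4 distal peaks. The nearest protein-coding start to all of them, and to the body peaks of both clones, was that of *Ddi1*.

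*Pdgfra* encodes the α-receptor, a marker of fibroblasts and of the dermal papilla. It lies on chromosome 5 from 75152292 to 75198215 on the plus strand and has 9 annotated starts. In clone 1 a peak of 28 reads (fold 6.77) and another of 55 reads (fold 14.5) lay at the starts. In clone 2 a broad peak of 4.48 kb had 215 reads and a fold of 46.5, and a small peak of 30 reads lay 883 bp from a start, just inside the window. Clone 3 had no peak in the gene or within 100 kb, which was the case for 18.5% of all genes there. The summits of the main peaks lay 3.84 and 4.10 kb into the gene, near the starts of shorter transcripts and away from the outermost start. The folds were no lower than those of 35.6% and 60.9% of marked genes of clones 1 and 2. Of 3365 peaks of clone 2 with 172 to 258 reads, 98.6% overlapped a peak of clone 3, and of 4149 peaks of clone 1 with 44 to 66 reads, 88.6% did. The peaks at *Pdgfra* belong to the remaining sites of this height, without a partner in clone 3. Clones 1 and 2 also had a like control background, and only their peak names state a filter for mapping bias. The part of this in the lack of a peak in clone 3 was not tested. Of the 15 mesenchymal markers, 9 had a promoter peak in all 3 clones, 3 had none, *Col3a1* had one in clone 3 only (44 reads), and 2 had the pattern of *Pdgfra*, as had 2 of the 5 mural markers. *Col1a1* and *Col1a2*, the chains of type I collagen, had promoter peaks of 44 and 84 reads in clone 1 and 49 and 47 in clone 2, and the mural markers were *Cspg4*, which encodes a proteoglycan, with 95 and 26 reads and *Acta2*, smooth muscle actin, with 19 and 32. Most peaks of clone 2 at these heights had no partner in clone 3. Of those with 41 to 61 reads 37.6% overlapped one, and of those with 23 to 33 reads 17.2% did. The part of these markers in the result was not tested.

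*Pdgfrb* encodes the β-receptor, a marker of pericytes and of fibroblasts. It lies on chromosome 18 from 61045150 to 61085061 on the plus strand, with 2 starts 50 bp apart. Promoter peaks covered both starts in every clone, with 93, 187 and 45 reads and folds of 13.5, 27 and 4.96. These were no lower than the folds of 32.0%, 32.2% and 14.0% of marked genes. In clone 3 the signal was broken into 3 peaks, of which the outermost ended 782 bp before a start. The 3 clones thus all marked the start, and all of them below the median gene. The body held 4, 9 and 3 peaks, in clone 2 with folds of 4.48 to 11.9, and clone 1 had its 4 between 10.5 and 13.8 kb from the start. The peaks of clone 3 lay between 26.3 and 27.5 kb from the start, and 1 of them overlapped a peak of clone 2 and none a peak of clone 1. Peaks covered 8.61%, 27.5% and 3.81% of the gene.

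Around *Pdgfrb* 6, 18 and 4 distal peaks lay within 100 kb. A region 51.9, 51.1 and 51.7 kb upstream was marked in clones 1, 2 and 3, with folds of 17.2, 52.2 and 9.89. These folds were higher than at the start of the gene. The reads were 93, 264 and 93 against 93, 187 and 45 at the start, so in clone 1 they were equal. The nearest protein-coding start to this region was that of *Slc6a7*, which encodes a proline transporter, 21.4 kb from the summit of clone 1. The highest distal peak in each clone lay at the start of *Hmgxb3*. *Csf1r*, the receptor of colony stimulating factor 1 and the neighbour of *Pdgfrb*, had a weak promoter peak of 24 reads in clone 2 only. Clone 2 alone had 2 peaks within 5 kb upstream of *Pdgfrb* whose nearest start was that of *Pdgfrb*.

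**Figure D3:**
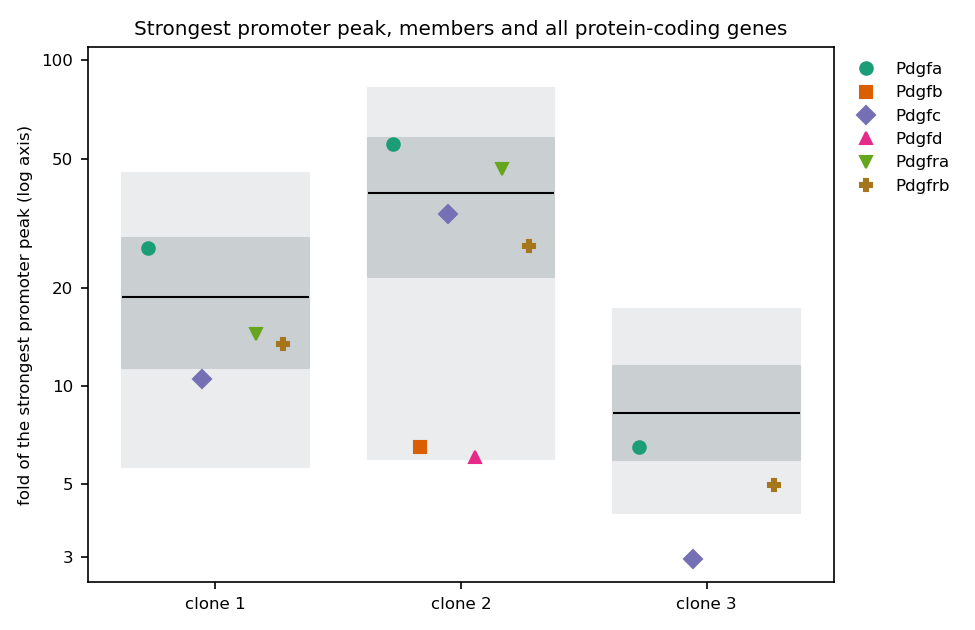
Fold of the strongest promoter peak of each gene in each clone (log axis). Grey bands hold the middle 50% and 90% of all protein-coding genes with a promoter peak and the line is their median, 18.8, 39.3 and 8.30 in clones 1, 2 and 3. *Pdgfa* lies highest of the 6 in every clone, and *Pdgfb* and *Pdgfd* lie near the bottom of clone 2.

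Body peaks were found in 3, 4 and 3 of the 6 genes, which makes 10 of the 18 combinations. Of 10422 genes at least as long as *Pdgfb*, the shortest member (19.1 kb), 26.2%, 41.5% and 30.0% had one. Distal peaks were found at 3, 4 and 5 of the 6 genes, against 75.6%, 80.2% and 77.3% of all genes, and came to 18, 49 and 22 peaks. Without clone 2, 6 combinations had a body peak and 40 distal peaks were left. The median was 0.500, 3.00 and 3.50 per PDGF gene against 3.00, 5.00 and 3.00 per protein-coding gene. Most of them lay at *Pdgfb* and *Pdgfrb*, where several other genes are close by. Merging the peaks of the 3 clones gave 89 regions in and around the 6 genes, of which 12 (13.5%) were marked in all clones, 15 (16.9%) in 2 and 62 (69.7%) in 1. Of 57727 regions merged in the same way over the genome, 27.3% were marked in all clones, 14.0% in 2 and 58.7% in 1, and the difference was not tested.

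Joining neighbouring peaks into domains placed 4, 5 and 4 of the 6 genes in a domain of 2 or more peaks in clones 1, 2 and 3. Of all protein-coding genes 28.6%, 37.7% and 28.3% were in one. These shares are over genes of any length, whereas each PDGF gene is at least 19.1 kb long. A longer gene has more room to overlap a domain, so the counts and shares are not like for like. The 13 combinations fell to 8 without clone 2, to 8 at a −log10 q of at least 5 and to 11 with equal numbers of peaks per clone. The largest domain of the family was that of *Pdgfrb* in clone 2, which had 13 peaks over 34.2 kb with 13498 bases under peaks and ranked 356 of 18280. *Pdgfrb* ranked 1091 of 14560 in clone 1, whereas in clone 3 its start domain had 1569 bases and ranked 5942 of 16371. The domain of *Pdgfa* ranked 1783, 560 and 386 in clones 1, 2 and 3. In clone 3 it also overlapped *Prkar1b*, and its last summit lay 5.68 kb from the nearest start of that gene. That of *Pdgfc* ranked 4665, 5122 and 368, and only in clone 3 did it join the start with the intronic region, over 29.4 kb. In that clone a further body peak of 64 reads, 9.94 kb into the gene, lay between them. *Pdgfb* had a domain in clone 2 only, of 7 peaks over 24.2 kb, which joined the start to the upstream region and ranked 1323. It reached the gene only through the promoter peaks of 17 and 28 reads, and neither was left with equal numbers of peaks per clone. In clones 1 and 3 the upstream region also held neighbouring peaks, but these did not reach the gene or its promoter windows and so were not counted. The 2 peaks at *Pdgfra* formed domains of rank 1505 and 1628 in clones 1 and 2. *Pdgfd* had a domain of 2 peaks in clone 3 only, of rank 9708. *Pdgfrb* thus ranked highest of the 6 genes in clones 1 and 2, and *Pdgfc*, closely followed by *Pdgfa*, in clone 3.

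**Figure D4:**
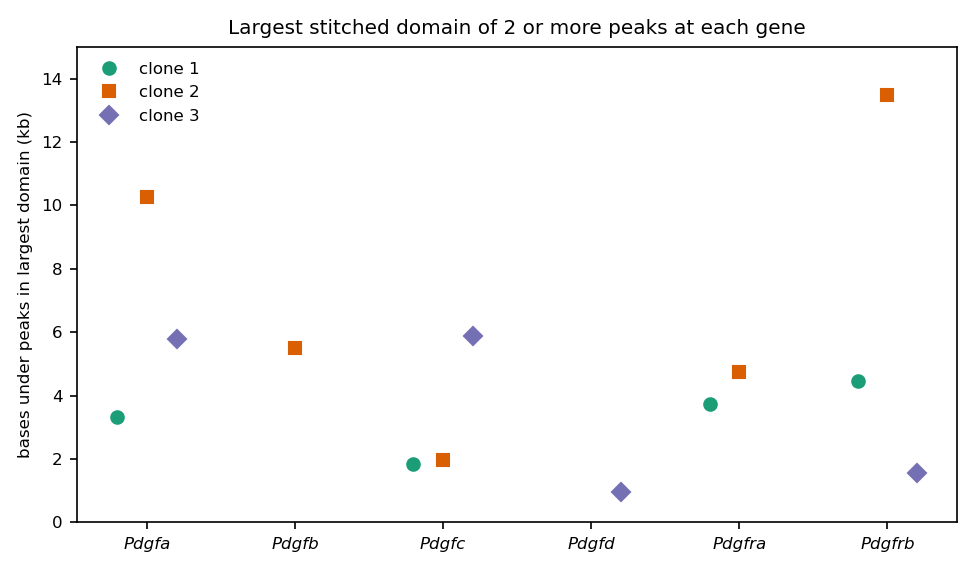
Bases under peaks (kb) in the largest domain of 2 or more peaks at each gene, 1 symbol per clone. No symbol means that the gene was in no such domain in that clone. *Pdgfrb* and *Pdgfa* in clone 2 hold the most bases.

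Other genes of the pathway were looked up for comparison. Of 51 such genes, 44, 45 and 43 had a promoter peak in clones 1, 2 and 3, and 42 had one in all of them, where the shares of all protein-coding genes were 49.8%, 56.9%, 48.1% and, in all clones, 46.5%. All 23 adaptors and effectors that bind or follow active receptors were marked in all clones. Among them *Grb2*, the adaptor to the Ras pathway, had 135, 391 and 124 reads, *Plcg1*, a phospholipase bound by the receptors, 177, 397 and 131, and *Pik3r1*, a regulatory subunit of phosphoinositide 3-kinase, 113, 260 and 82. All 8 immediate early genes that growth factors induce were marked as well, with *Myc* at 177, 311 and 152 reads and *Egr1* at 120, 421 and 102. These genes are used by many receptors and are not particular to PDGF.

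Of 13 genes that process or bind the ligands 10 were marked in each clone and 9 in all. *Furin*, the protease that cleaves the A and B chain precursors, had 239, 390 and 129 reads, and *Plat*, tissue plasminogen activator, which removes the CUB domain of the C chain, had 38, 43 and 93. *St14*, which encodes matriptase, and *Pcsk5* had none in any clone, and *Pcsk6* had one in clone 1 only. The related receptors *Kit*, *Flt3* and *Kdr* had no promoter peak in any clone. Of the ligands of receptors in this class, *Kitl*, the ligand of *Kit*, and *Csf1*, the ligand of *Csf1r*, were marked at the start in every clone, and *Flt3l*, the ligand of *Flt3*, was in clones 1 and 2.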

How the data were processed

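H3K27-Ac was measured by ChIP-seq in 3 clones. Per the labels, alignment to GRCm38 used Bowtie2 and the authors called peaks with MACS2 2.1.1, 1 list per clone, where both libraries of clone 3 were merged. The peak names state a filter for mapping bias between alleles for clones 1 and 2 only. In the deposited lists fold is a ratio of pileup to background (1 is added to both), and significance is given by the authors as −log10 of p and of q. For clone 2 no IgG library was mapped, and its control is not given in the sources used here.

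Chromosomes 1 to 19, X and Y were kept, which removed 5, 21 and 3 peaks. GENCODE M21 genes and RefSeq sequences (GRCm38.p6) were used. Computations ran in Python 3.11.15 with pandas 2.3.3, numpy 2.4.6, matplotlib 3.10.9 and scipy 1.17.1. A promoter peak lies within 1 kb of any transcript start, a body peak overlaps the gene by at least 1 bp without being a promoter peak, and a distal peak lies outside both with its nearest edge within 100 kb. Domains join peaks up to 12.5 kb apart and are ranked by bases under peaks. A partner is a peak overlapping by at least 1 bp, looked up for peaks within 20% of the reads of the peak named. Backgrounds were compared at summits within 25 bp. ChIP reads at summits were solved from fold and p, where the p-value is a Poisson tail, with 1 read worth 0.424, 0.428 and 0.308 control reads; between 0% and 0.133% of peaks allowed a close other solution. Tested on simulated data, 100% of 3462, 3501 and 2946 peaks were returned with the right reads. The simulated fold and p were written with the formulas that were solved. This checks the solution only and not whether the deposited values follow those formulas. Reads at a summit are counts with counting error, which bounds no difference between clones.

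The genes named are the 6 genes, fixed lists of the pathway and of cell markers, and genes nearest to distal peaks or sharing a domain. The genes and lists were chosen with earlier results of these data known. With 1 condition no test was made. Alternatives were other promoter windows and starts, a −log10 q of at least 5, equal numbers of peaks per clone, other distances and leaving out each clone.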

Additional observations from a re-analysis of the deposited data

How the results depend on the processing

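Of 51 alternative values, 41 kept the result, counts within 1.5 times and the share of all genes within 1 SD over clones (4.65 percentage points). The 3 genes with a promoter peak in all clones became 2 with the outermost start only, where the peak of *Pdgfa* in clone 1 lay outside the window, and with a −log10 q of at least 5, where *Pdgfc* in clone 3 was lost. With equal numbers of peaks per clone, 29182, *Pdgfb* and *Pdgfd* had no promoter peak in any clone, whereas *Pdgfra* remained in clones 1 and 2. Requiring a peak over a start base took the share of all genes from 51.6% to 46.8%. The 89 distal peaks became 54 at a −log10 q of at least 5, 45 within 50 kb, 297 within 250 kb and 16 where the nearest start had to be that of the PDGF gene. The 13 combinations in a domain became 8 at a −log10 q of at least 5. Leaving out each clone in turn gave 3 to 4 genes with a promoter peak in all remaining clones, 7 to 10 combinations with a promoter peak (from 13), 6 to 7 with a body peak (from 10), 40 to 71 distal peaks, 8 to 9 combinations in a domain and a share of all genes of 49.0% to 53.4%, the lowest counts being those without clone 2 except for the genes marked in all clones, and part of each drop in a sum comes from having fewer samples. No paired analysis was possible because there is 1 condition. The data limit what can be said, as a peak list holds no value for sites under its threshold and each clone is 1 sample. The controls of clones 1 and 2 cannot be taken as independent, and H3K27-Ac does not show which gene a distal peak acts on.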
